A study of Mus musculus with 6 samples.

Results

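Chromatin binding of 5 proteins was described at the genes of Nodal, a secreted ligand of the TGF-beta family, and of Lefty1 and Lefty2, its secreted inhibitors. All peaks overlapping mm9 chr10:60855000-60910000 (the Nodal window) or chr1:182805000-182885000 (the window of Lefty2 and Lefty1) were taken. They numbered 51 of the 70533 peaks in the 5 lists, 17 in the Nodal window and 34 in the Lefty window. By factor they were 11 of 16400 Tgif1 peaks, 16 of 19129 Tgif2 peaks, 11 of 16506 Hdac1 peaks, 9 of 17272 Nanog peaks and 4 of 1226 Smad3 peaks. The lists came from ChIP-seq, the sequencing of DNA that comes down with a cross-linked protein, in mouse embryonic stem cells of the J1 line cultured with serum and leukemia inhibitory factor. The cells of all groups carried BirA, a bacterial enzyme that puts biotin on tagged proteins. Antibodies were used for Tgif1, Hdac1 and Smad3, whereas streptavidin beads, which bind biotin, were used for Nanog and Tgif2. The labels do not say how the biotin-tagged proteins were expressed. Each factor had 1 library and 1 peak list, so no value has a replicate check, and the mock pull-down is not analysed here.

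Nodal binds activin receptors together with the coreceptor Tdgf1 (Cripto), and the receptors phosphorylate Smad2 and Smad3. These enter the nucleus with Smad4 and act with DNA-binding partners such as Foxh1 on target genes. Nodal, Lefty1 and Lefty2 are themselves among the direct targets, so the pathway drives both its ligand and its inhibitors, and embryonic stem cells express all of them. Tgif1 and its paralog Tgif2 are homeodomain corepressors that bind Smad proteins, Hdac1 removes acetyl groups from histones as part of corepressor complexes, and Nanog is a homeodomain protein that sustains pluripotency.

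The sequence upstream of Nodal is shown because Smad3, Nanog and the Tgif proteins read short DNA letters of known kinds. RefSeq promoter windows matched 1 of the 3 genes, Nodal, and not Lefty1 or Lefty2. The 250 bases before the Nodal start lie at chr10:61417722-61417971 of GRCm38.p6, plus strand, a build other than that of the peaks, so no peak was placed on them. Capitals mark TAAT or its reverse complement ATTA, the core read by many homeodomains.
Nodal upstream: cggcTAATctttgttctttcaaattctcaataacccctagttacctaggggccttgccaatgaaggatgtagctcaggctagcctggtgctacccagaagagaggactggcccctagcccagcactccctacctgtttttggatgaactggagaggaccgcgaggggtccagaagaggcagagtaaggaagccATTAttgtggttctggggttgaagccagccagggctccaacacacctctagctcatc
Both strands of the window of 300 bases, which includes 50 bases past the start, were searched. TAAT matched 2 times, 246 and 57 bases before the start, and it occurred in 58.0% of the 32851 promoter windows of this length. The Smad box CAGAC, the Tgif core TGTCA and the Foxh1 letters AATNCACA had 0 matches, beside 49.6%, 45.4% and 3.60% of all windows. These letters are therefore not in this window, and the peak sequences themselves were not analysed here.

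A site below is a set of peaks from different lists joined by overlaps of at least 1 bp. The tag number is the count of sequenced fragments in a peak, given with a 95% Poisson interval, and fold is the authors' enrichment of the peak over its background. Both were ranked from the strongest within each list only, with tied ranks averaged. Reads without molecular identifiers are not independent molecules, so the intervals cover counting error only. The 51 peaks formed 14 sites, 4 in the Nodal window and 10 in the Lefty window. Factors met at 8 of the 14 sites in groups of at least 3, and 33.9% of the 33152 sites of the series held as many. All 5 factors were present at 2 of the 14 sites, against 2.01% in the series. In RefSeq's gene order (GRCm38.p6), Pald1 and Eif4ebp2 are the protein-coding genes that flank Nodal. Annotation of mm9 was not used here, so sites are not assigned to a promoter, an exon or one of the 2 Lefty genes.

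**Figure D1:**
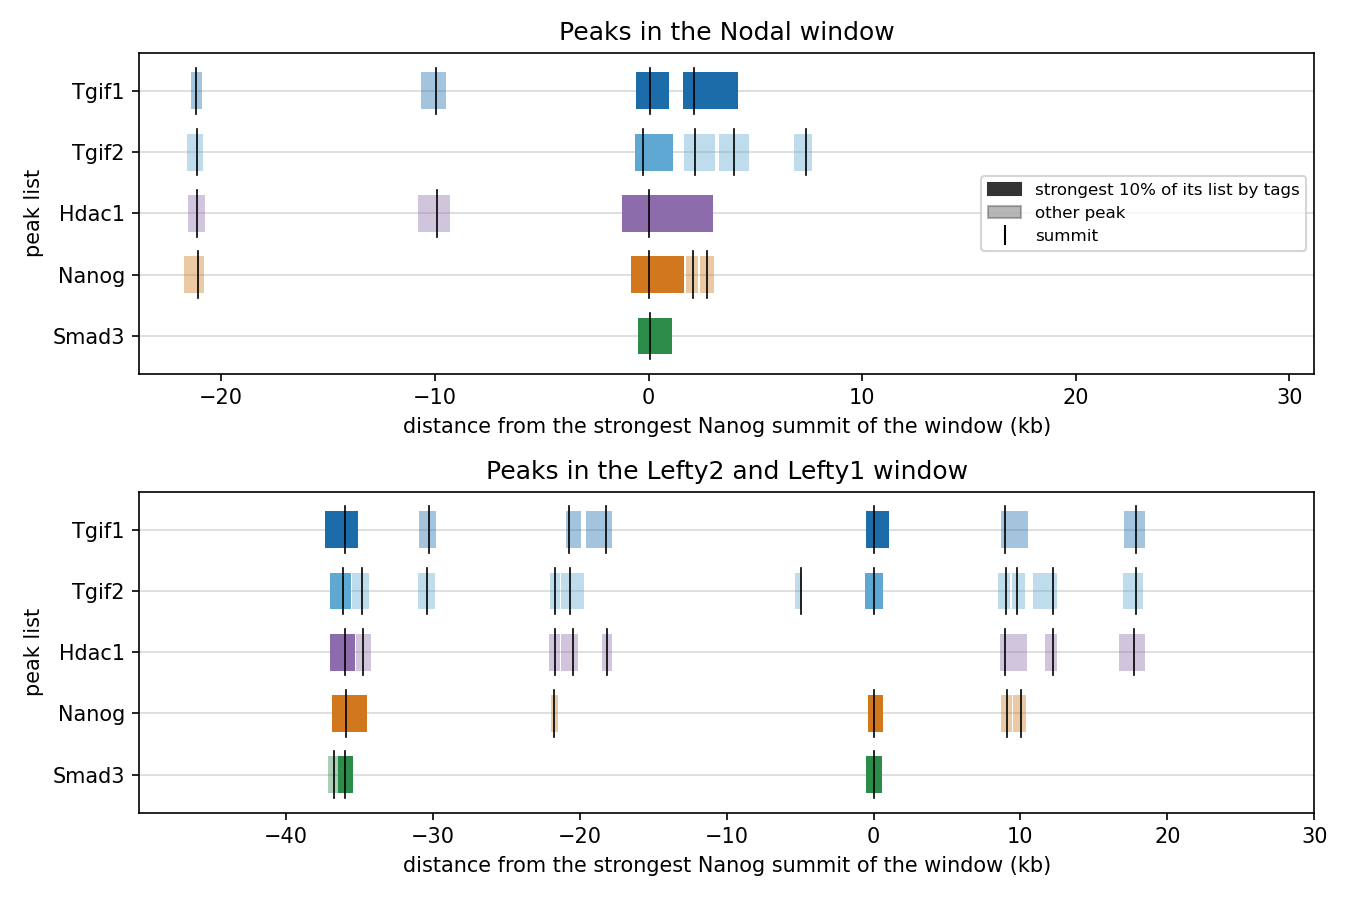
Peaks of the 5 lists in the Nodal window (top) and the Lefty2 and Lefty1 window (bottom), by distance in kb from the Nanog summit with the most tags in each window. Bars are peaks, black ticks are summits, and dark bars belong to the strongest 10% of their list by tags. The dark bars stack at 1 place in the Nodal window, where Tgif1 has another dark bar beside it, and at 2 places 35.9 kb apart in the Lefty window, and Hdac1 has no bar at the right-hand one.

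At the gene of the ligand, all 5 factors had peaks together at a single site inside the window, chr10:60877581-60883546. It spanned 5965 bp and ranked 15 by width among the 33152 sites, with 3 peaks of Tgif2, 3 of Nanog, 2 of Tgif1 and 1 each of Hdac1 and Smad3. The Smad3 peak, chr10:60878348-60879952, held 89 tags (interval 71.5 to 110) at 16.1-fold and ranked 54 of 1226 by tags and 96.5 by fold. It was the only Smad3 peak of the Nodal window and the twelfth widest of its list, at 1604 bp.

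Hdac1 had 1 broad peak at this site, chr10:60877581-60881865, which ended before the right-hand end of the site. This peak was 4284 bp wide, which ranked 11 of 16506, and held 251 tags (221 to 284). That placed it at rank 22.5 by tags, within ranks 14 to 39 over the counting interval, the highest standing of any of the 51 peaks in its list. By fold, 13.7, it ranked only 4790, and its 58.6 tags per kb were fewer than the 97.3 of the leading Hdac1 peak in the Lefty window.

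Nanog was strong on the left of the site and weak on the right. Its peak at chr10:60878031-60880483 held 268 tags (237 to 302) at 68.9-fold and ranked 217.5 of 17272. The next Nanog peaks, starting at 60880598 and 60881222, held 24 and 30 tags, at or below the list's median of 30. They reached 18.5-fold and 12.7-fold and ranked 10966.5 and 8471 by tags.

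Tgif1 differed from Nanog in holding as much at the right-hand part as at the left. Its left peak, chr10:60878268-60879774, had 126 tags (105 to 150) at 16.3-fold and ranked 1183 of 16400. Its right peak, chr10:60880448-60883034, had 131 tags (110 to 155) at 10.4-fold and ranked 1024. The intervals overlap, so their order was not resolved, although the right peak was 2586 bp wide and had 50.7 tags per kb against 83.7 in the left one.

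Tgif2 favoured the left part. It had 169 tags (144 to 196) at 20.1-fold at chr10:60878183-60879960, rank 633.5 of 19129, then 72 tags (56.3 to 90.7) at the peak starting at 60880506 and 54 (40.6 to 70.5) at the one starting at 60882130. The interval of the first lies above those of the other two. The last of these overlapped only Tgif1. The weaker peaks reached 11.3-fold and 8.65-fold and ranked 6429 and 10464 by tags.

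The remaining sites of the Nodal window were weaker by tags. Site chr10:60857077-60858060, 21.1 kb before the strongest Nanog summit, carried Tgif1 (48 tags), Tgif2 (58), Hdac1 (34) and Nanog (34) without Smad3. By tags these ranked 9737.5, 9402, 13285.5 and 7260 in their lists, and the fold of the Tgif2, Hdac1 and Nanog peaks was 15.8, 7.41 and 16.02. The Tgif1 peak had the highest Tgif1 fold of both windows, 21.7, at rank 3227.5. Site chr10:60868030-60869563 carried Tgif1 (51 tags) and Hdac1 (53). The last site, chr10:60885654-60886468, held Tgif2 alone with 55 tags, and its 25.0-fold was the highest Tgif2 fold of both windows (rank 3239). The list medians were 54 tags for Tgif1, 57 for Tgif2, 47 for Hdac1 and 30 for Nanog.

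The counts at Nodal depend on where the window ends. Widened by 10 kb on each side it held 6 Tgif1, 8 Tgif2, 4 Hdac1, 6 Nanog and 2 Smad3 peaks. Just outside it, at chr10:60844107-60846985, lay another place with peaks of all 5 factors, where Hdac1 held 208 tags (rank 51), Tgif1 111, Tgif2 98, Nanog 95 and Smad3 21. The nearest listed peak inside that edge is the Nanog peak starting at 60857077 with 34 tags. By fold, the leading peaks of the outside place reached 45.73 for Tgif1, 35.12 for Tgif2, 28.25 for Hdac1 and 68.94 for Nanog. The highest inside the window were 21.68, 25.01, 13.7 and 68.92. Smad3 had 10.79 outside and 16.1 inside. At the other edge a Tgif2 peak with 93 tags began 4302 bp outside. No peak lay within 10 kb outside the Lefty window.

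At the genes of the inhibitors, Smad3 marked 2 strong places. The Smad3 peak chr1:182854458-182855569 held 99 tags (80.5 to 121) at 20.2-fold and ranked 39.5 of 1226 by tags and 34 by fold. The peak chr1:182818550-182819557 held 95 tags (76.9 to 116) at 15.3-fold and ranked 45.5 and 126.5. A small neighbour at chr1:182817866-182818534 held 23 tags (14.6 to 34.5), below the list median of 26, at 7.65-fold, and ranked 736.5 by tags and 1004.5 by fold. The leading Smad3 peaks of the Nodal and Lefty windows, with 89, 95 and 99 tags, had overlapping intervals and thus were not ordered.

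The first of the Lefty sites along the chromosome, chr1:182817634-182820803, carried all 5 factors in 8 peaks. Tgif1 held 173 tags (148 to 201) there, its most in either window, at rank 379 of 16400. Hdac1 held 170 (145 to 198) at rank 122.5, Nanog 266 (235 to 300) at rank 222 and Tgif2 133 (111 to 158) at rank 1346.5. All 4 of these leading peaks ranked among the strongest 10% of their lists by tags. By fold none did: Nanog reached 42.0-fold (22.5% from the top), Hdac1 11.5-fold (42.9%), Tgif1 8.73-fold (82.7%) and Tgif2 8.88-fold (84.6%). On its right side Hdac1 and Tgif2 had further peaks of 53 and 66 tags (7.19-fold and 6.28-fold, ranks 6596 and 7530.5 by tags) with summits 66 bp apart.

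The other strong Lefty site, chr1:182854416-182856015, carried Smad3, Nanog, Tgif1 and Tgif2 but no listed Hdac1 peak. Nanog held 364 tags (328 to 403) at 103-fold, rank 91 of 17272 by tags and 710 by fold, the strongest Nanog peak of both windows by either measure. Its interval lies above those of the Nanog peaks at the other Smad3 sites, which held 266 and 268 tags. Tgif1 held 134 tags (112 to 159) at rank 943 and Tgif2 126 (105 to 150) at rank 1592. By fold both stood below the middle of their lists, Tgif1 at 12.04-fold (57.9% from the top) and Tgif2 at 9.79-fold (78.0%). The nearest Hdac1 summit was 8944 bp away. The smallest number of tags in an Hdac1 peak of the list was 28, and enrichment too weak to be called does not appear in a list.

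Few sites of the series had this combination. Of 33152 sites, 24 held Tgif1, Tgif2, Nanog and Smad3 without Hdac1, or 0.0724%, against 665 with Hdac1 added. Among the 40 Smad3 peaks with at least 99 tags, 30 overlapped Hdac1 and 10 did not. Among the 91 Nanog peaks with at least 364 tags, 81 overlapped Hdac1 and 10 did not. Most Smad3 and Nanog peaks of this strength thus had an Hdac1 peak, as did 81.1% of all Smad3 peaks and 45.9% of all Nanog peaks.

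**Figure D2:**
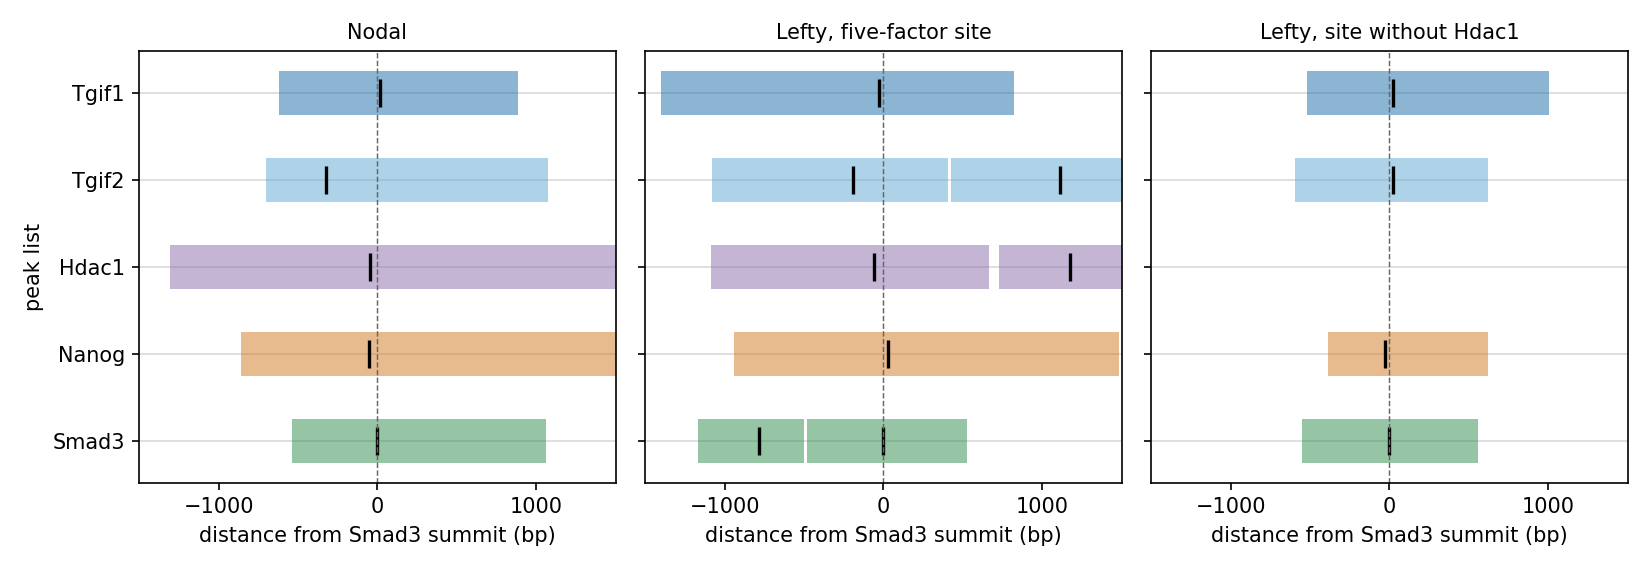
Peaks (bars) and summits (black marks) of the 5 lists around the leading Smad3 summit of each Smad3 site, in bp, clipped at 1500 bp on each side. Tgif1, Nanog and, where listed, the leading Hdac1 summit lie within 60 bp of Smad3 at all 3 sites, while the nearest Tgif2 summit is 325, 190 and 22 bp away.

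The leading Smad3 summit of each of these 3 sites lay close to that of Tgif1. The Tgif1 summit was 19 bp away at the Nodal site, 28 bp at the first Lefty site and 25 bp at the Lefty site without Hdac1. Over all overlapping Tgif1 and Smad3 peaks of the series the median was 49 bp. Of those pairs, 23.8%, 31.7% and 29.6% were as close as these 3 or closer, so such distances were common. The small Smad3 peak of the first Lefty site differed, with its summit 755 bp from that of Tgif1, 593 bp from Tgif2, 723 bp from Hdac1 and 812 bp from Nanog. Nanog lay 56, 29 and 27 bp from the leading Smad3 summits (series median 36 bp), and Hdac1 50 and 60 bp (series median 46 bp). Tgif2 was displaced to lower coordinates at 2 of the 3 sites, by 325 bp at Nodal and 190 bp at the first Lefty site, and lay 22 bp away at the site without Hdac1. In the series the median distance of Tgif2 from Smad3 was 64.5 bp, and 87.5% of overlapping pairs were as close as 325 bp or closer. These are single summits from 1 library each, and their precision was not measured. With sites joined by summits within 200 bp, the Nodal group kept Smad3, Nanog, Hdac1 and Tgif1 and lost Tgif2, whereas the first Lefty site kept all 5.

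The other Lefty sites had no Smad3 peak. Site chr1:182863466-182865472, with a Tgif1 summit 8.97 kb after the strongest Nanog summit, carried Tgif1 (108 tags), Hdac1 (85), Tgif2 (46 and 55) and Nanog (32 and 31). Its Tgif1 and Hdac1 peaks, at 15.1-fold and 12.2-fold, ranked 1852 and 1798 by tags, with summits 2 bp apart. Its Tgif2 peaks (11.8-fold and 11.02-fold) ranked 13054 and 10176.5, and its Nanog peaks (15.7-fold and 11.8-fold) 7814 and 8136. Tgif1, Tgif2 and Hdac1 met without Nanog at chr1:182833694-182835298 (48, 92 and 53 tags) and at chr1:182871685-182873467 (66, 81 and 73 tags). At the former site the ranks by tags were 9737.5 for Tgif1 (5.08-fold), 3733 for Tgif2 (12.1-fold) and 6596 for Hdac1 (7.43-fold). At the latter they were 5879 (9.49-fold), 5051.5 (9.62-fold) and 2917.5 (6.85-fold). In the series 4907 sites held just these 3 factors.

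The remaining Lefty sites held fewer factors or few tags. Tgif2, Hdac1 and Nanog met at chr1:182832876-182833657 with 35, 31 and 18 tags, all below their list medians, with summits within 26 bp. The ranks by tags were 17816.5 for Tgif2 (11.3-fold), 14774.5 for Hdac1 (9.34-fold) and 14947.5 for Nanog (16.7-fold). Pairs were Tgif1 and Tgif2 at chr1:182823999-182825163 (67 and 72 tags), Tgif1 and Hdac1 at chr1:182835395-182837211 (76 and 29), and Tgif2 and Hdac1 at chr1:182865845-182867504 (74 and 30, summits 1 bp apart). By fold the first pair reached 5.3 (99.5% from the top of its list) and 7.19 (94.7%), in the same order. The second pair reached 12.2 (56.8%) and 8.56 (70.6%), and the third 9.15 (82.5%) and 5.93 (95.5%). Tgif2 alone held 34 tags at chr1:182849608-182850144. Across both windows Tgif2 was present at 12 of the 14 sites, Tgif1 at 10, Hdac1 at 10, Nanog at 6 and Smad3 at 3. Over all sites of the series 55.6% held Tgif2, 50.1% Nanog, 48.6% Hdac1, 47.5% Tgif1 and 3.60% Smad3, an order that follows the unequal lengths of the lists.

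Standing in the lists depended on the measure. By tags, 3 of 4 Smad3, 3 of 9 Nanog, 4 of 11 Tgif1, 2 of 11 Hdac1 and 3 of 16 Tgif2 members were in the strongest 10% of their list. By fold the counts were 2 for Smad3, 2 for Nanog and 0 for Tgif1, Tgif2 and Hdac1. By definition this class holds about 10% of each whole list. In the Lefty window 7 of 11 Tgif2 peaks were in the stronger 50% of the list by tags and 0 by fold, where the whole list gives 49.8% and 50.0%. For Tgif1 the counts were 6 of 7 by tags and 1 of 7 by fold, beside 50.6% and 49.9%. Wide peaks hold more tags, and the median width in the Lefty window was 1526 bp for Tgif1 against 933 bp in its list and 1187 bp for Tgif2 against 943 bp. The part of width in the tag ranks was not tested.

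**Figure D3:**
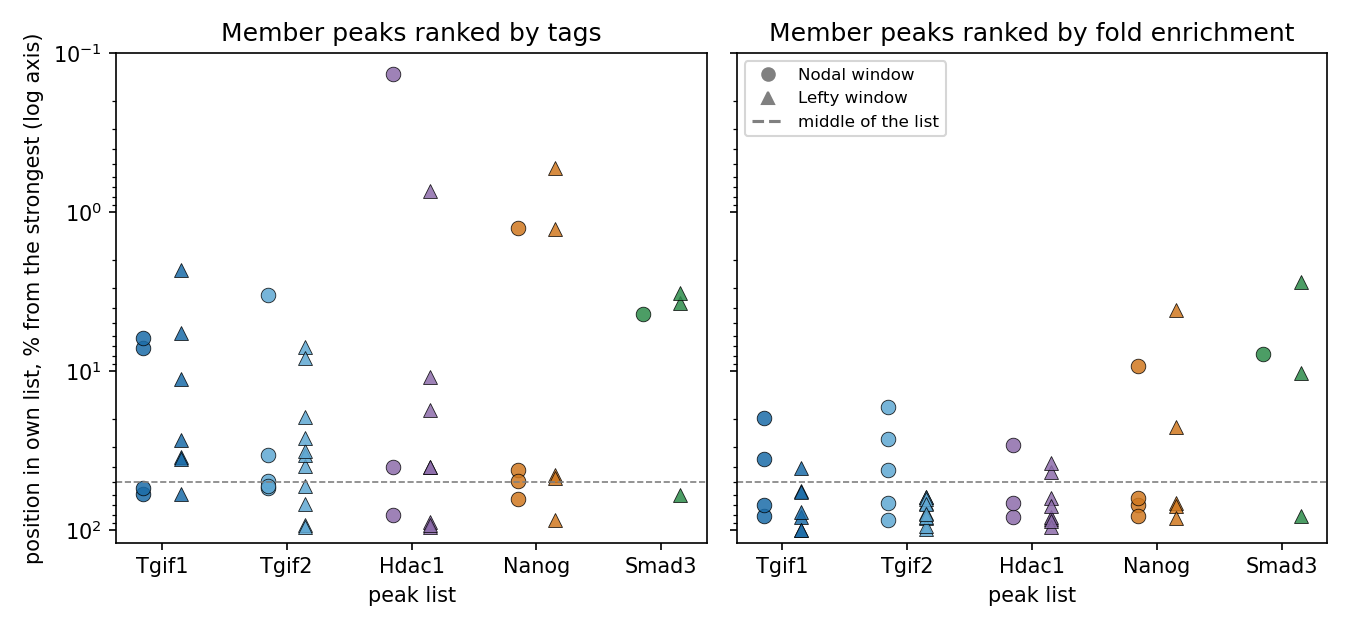
Position of each of the 51 peaks in its own list, in percent from the strongest on a log axis (strongest at the top), ranked by tags (left) and by fold enrichment (right). Circles are peaks of the Nodal window and triangles of the Lefty window, and the highest point is the broad Hdac1 peak at Nodal at 0.136%. On the right the Tgif2 triangles all lie below the dashed line at 50%.

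Set against other places with all 5 factors, the strong Smad3 peaks of the loci stood high by tags. Over the 665 such sites, taking the peak with the most tags per factor, the median Smad3 peak had 32 tags, and 5.71% of sites had at least the 89 tags seen at Nodal and 4.96% at least the 95 at the first Lefty site. For Hdac1 the median was 85 tags, and 0.752% of sites reached the 251 at Nodal and 6.32% the 170 at Lefty. Nanog stood lower, with a median of 136 tags and 18.6% and 19.1% of sites at or above the 268 at Nodal and the 266 at Lefty. For Tgif1 the shares were 20.3% at Nodal and 9.47% at Lefty, and for Tgif2 10.1% and 18.6%. The Tgif1 share at Nodal is that of the right-hand peak with 131 tags, which no Smad3 peak overlapped. The Tgif1 peak that Smad3 overlapped there held 126. The Nodal site ranked 15 by width among the 33152 sites and held several peaks of some factors, from which the largest was taken. These shares are by tags only. The Hdac1 and Smad3 peaks at Nodal ranked 11 and 12 by width in their lists, and the part of width was not tested.

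The shares of Nanog members with a Tgif protein or Hdac1 were above those of the whole Nanog list. Of the 9 Nanog peaks, 9 overlapped Tgif2, 8 Tgif1 and 8 Hdac1, where the whole list gives 36.7%, 35.8% and 45.9%. Smad3 overlapped 3 of them, against 6.43%. For the 4 Smad3 peaks the counts were 4 with Nanog, 4 with Tgif1, 4 with Tgif2 and 3 with Hdac1, against 90.3%, 67.5%, 63.7% and 81.1%. Several peaks share a site, so these counts are not independent, and no test was made. By summits within 200 bp the Nanog counts fell to 5 with Tgif2, 6 with Tgif1 and 5 with Hdac1, where the whole list gives 27.2%, 27.7% and 37.0%.

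Tgif1, Tgif2 and Hdac1 members stood closer to their lists in their overlap with each other. Of 11 Tgif1 peaks, 9 overlapped Tgif2 and 9 Hdac1, beside 79.2% and 66.1% of the list, and 6 overlapped Nanog and 3 Smad3, beside 36.7% and 5.04%. Of 16 Tgif2 peaks, 12 overlapped Tgif1, 11 Hdac1, 9 Nanog and 4 Smad3, beside 68.0%, 59.9%, 32.2% and 4.08%. Of 11 Hdac1 peaks, 9 overlapped Tgif1, 9 Tgif2, 6 Nanog and 2 Smad3, beside 64.6%, 68.4%, 45.6% and 5.90%.

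**Figure D4:**
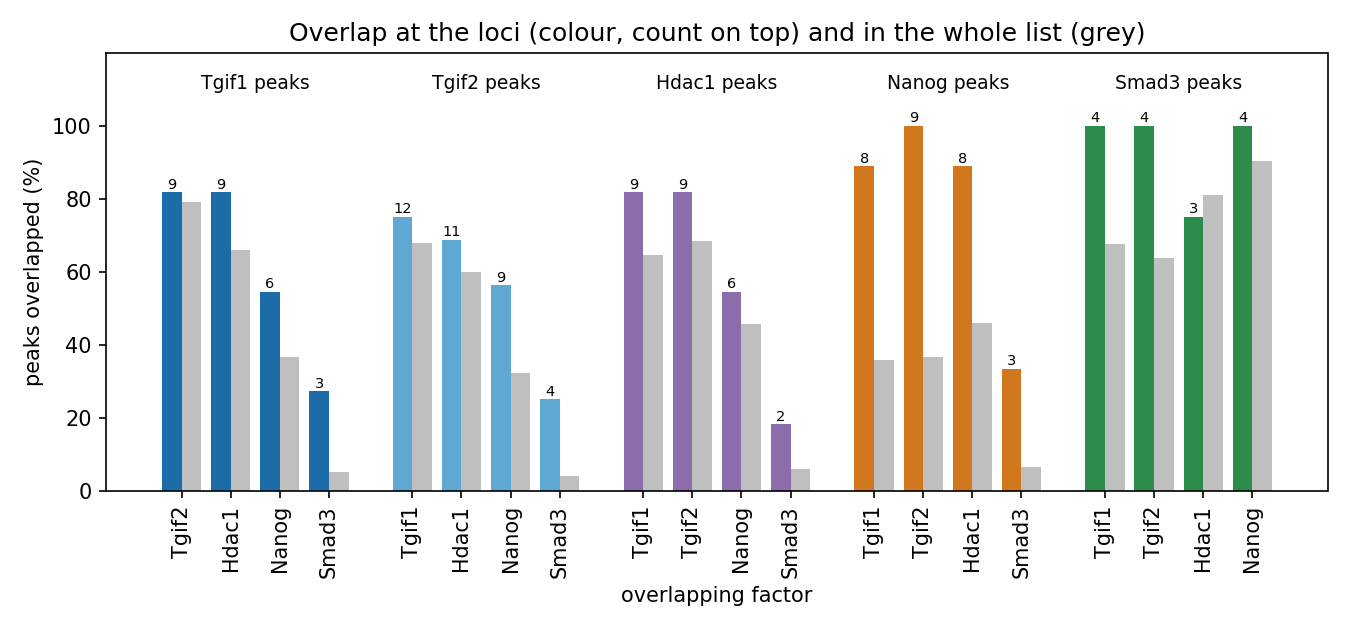
Percent of peaks overlapped by each other factor, for the members at the loci (coloured bars, with their number on top) and for the whole list (grey bars). The coloured bars of the 9 Nanog peaks stand farther above the grey ones for Tgif1, Tgif2 and Hdac1 than those of the other lists do for these factors, and the 4 Smad3 peaks give coarse percentages.

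Both windows held more peaks than most stretches of their length. Cut into windows of 55 kb from the start of each chromosome, 2.17% of 49118 held at least 1 Smad3 summit, and 1.55% held all 5 factors, as Nodal did. As many Tgif1 summits as the 4 at Nodal occurred in 1.62%, as many Nanog summits (4) in 1.63%, as many Tgif2 summits (5) in 1.08% and as many Hdac1 summits (3) in 3.28%. With the 5 lists together, 0.904% had 17 summits or more. For the Lefty window of 80 kb, 3 Smad3 summits or more occurred in 0.0977% of 33773 windows and 11 Tgif2 summits or more in 0.0829%. The 8 Hdac1 summits were reached in 0.258%, the 7 of Tgif1 in 0.557% and the 5 of Nanog in 1.59%, and 34 summits of the 5 lists together in 0.133%. Many stretches of a chromosome hold no peak of any list; among windows with at least 1, the share with as many summits of the 5 lists together was 2.81% for Nodal and 0.340% for Lefty.

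The loci held 0.326% of the Smad3 peaks (exact 95% interval 0.0890 to 0.833) and 0.708% of the tags in them. The share of peaks was 0.0836% for Tgif2 (0.0478 to 0.136), 0.0671% for Tgif1 (0.0335 to 0.120), 0.0666% for Hdac1 (0.0333 to 0.119) and 0.0521% for Nanog (0.0238 to 0.0989). The interval of Smad3 overlaps those of Tgif1, Tgif2, Hdac1 and Nanog, and the order of the shares of peaks was not tested. The share of tags was 0.130% for Nanog, 0.0953% for Hdac1, 0.0942% for Tgif1 and 0.0907% for Tgif2.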

How the data were processed

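ChIP-seq peak lists of 5 libraries were used. Reads were aligned with BWA 0.5.9-r16 and peaks called with MACS on mm9, per the submitters' processing notes. The control, the thresholds, the depth of the libraries and the treatment of reads that match both Lefty genes are not given in the sources used here. The deposited lists have no header. Column 4 was read as the fold enrichment (a ratio) given by the authors' peak caller, column 5 as the deposited count of tags per peak, and the last columns as the summit. Starts may count from 0 or 1, so positions carry 1 bp of uncertainty.

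Members were all peaks overlapping the windows. The members and lists were chosen with earlier results of these data known. All peaks were accounted for, with every Smad3 peak, all peaks at sites of at least 3 factors and the leading peaks of each list given with tags, fold and rank. With 1 library per factor no test was made. Intervals are exact Poisson (tags) or Clopper-Pearson (shares). Windows were tiled without random draws and counted by summits. A comparison of promoter letters over a list of 27 pathway genes is not reported, because only 15 had a promoter entry, too few for it to be valid. Counts were tested on simulated data, where 0 of 23 planted quantities were missed, and 0 of 20 overlaps differed from bedtools 2.31.1. Python 3.11.15, NumPy 2.4.6, pandas 2.3.3, SciPy 1.17.1 and matplotlib 3.10.9 were used.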

Additional observations from a re-analysis of the deposited data

How the results depend on the processing

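The smallest number of tags in a listed peak ran from 11 (Smad3) and 16 (Nanog) to 28 (Hdac1), 30 (Tgif1) and 33 (Tgif2), and what depth limits was not tested. No paired analysis was possible because each factor had 1 library. Requiring an overlap of 50% of the shorter peak, merging peaks within 500 bp, narrowing the windows by 10 kb, taking summits inside the window and offsetting the tiled windows kept every recomputed count within 1.5 times, or every share within its interval. Widening by 10 kb changed the Nodal counts of Tgif2 from 5 to 8 and of Smad3 from 1 to 2. Keeping peaks at or above the median fold left, at Nodal and Lefty, 2 and 1 for Tgif1, 3 and 0 for Tgif2, 1 and 2 for Hdac1, and 1 and 2 for Nanog. It left 3 Lefty sites, 1 of them with at least 3 factors and 0 with at least 4, with all 5 or with 1, and at Nodal 1 site with at least 3 and 1 with at least 4. Joining summits within 200 bp gave 8 Nodal sites, 0 with all 5 and 4 with 1 factor, and at Lefty 4 with 1. It also lowered Tgif2 peaks with Nanog to 5 and with Smad3 to 2, Nanog peaks with Tgif2 to 5 and with Hdac1 to 5, and Smad3 peaks with Tgif2 to 2. By fold, members in the stronger 50% numbered 3 for Tgif1, 3 for Tgif2, 3 for Hdac1 and 3 for Nanog, against 8, 10, 7 and 7 by tags. Of the 51 single ranks, 38 moved beyond their counting interval by fold and 13 did not. Among windows with at least 1 peak, the shares with as many summits at Nodal were 5.03% (Tgif1), 3.36% (Tgif2), 10.2% (Hdac1), 5.06% (Nanog), 6.73% (Smad3) and 2.81% (the lists together), and at Lefty 1.42%, 0.212%, 0.657%, 4.07%, 0.249% and 0.340%, because empty windows left the denominator. The other causes were not tested.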
